A study of Mus musculus with 8 samples.

Results

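Genes of the amino acid response and of tRNA charging were examined in the colon of adult mice. They were chosen by symbol: every gene whose name follows the pattern of an aminoacyl-tRNA synthetase (Aars to Yars, with or without a final 1 or 2), Eprs, and 15 genes known as targets or partners of the transcription factor ATF4. The rule names 50 genes, of which 46 were measured, out of 14351 genes in all. They comprise 17 cytosolic and 15 mitochondrial synthetases, 8 enzymes of amino acid synthesis and one-carbon metabolism, and 6 stress response regulators. Cars2, Lars, Mars2 and Trib3 were not analysed here.

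The study compared STAT5b-/- mice, which are deficient in the transcription factor STAT5b, with wild type (WT) mice, on 3 Affymetrix arrays each. A further sample titled REF, labelled wild type and female with the title not explained, was deposited as 2 columns that differed by at most 2.47e-07 of their value and were counted as 1 sample. By the labels, replicate 1 of the STAT5b-/- group came from a male and all other arrays from females, and all arrays hold total RNA of adult colon, amplified from 100 ng. The labels used here give neither the strain, the deleted part of Stat5b nor whether replicates are separate animals, so the p-values below reflect no more than the scatter of these arrays, part or all of which may be technical. For each probe set, the deposited values are the array's signal divided by the average of the 3 WT arrays. The WT mean is therefore 1 for every gene, and no gene's level can be set against another's, so markers that define colon could not be checked as levels. Array medians lay between 0.948 and 1.04, and the number of arrays limits the precision. The Stat5b probe set read 1.16, 1.17 and 1.26 in the arrays labelled STAT5b-/-, against 1.08, 0.930 and 0.993 in WT arrays, so the transcript was not measured lower and every direction below rests on the labels.

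Aminoacyl-tRNA synthetases join each amino acid to its tRNA. Separate nuclear genes usually encode the enzymes of the cytosol and of the mitochondrion; in mammals Gars and Kars supply both. When uncharged tRNA builds up, the kinase GCN2 phosphorylates the initiation factor eIF2alpha, general translation slows and the ATF4 protein is made. ATF4 then binds composite C/EBP-ATF elements near genes for amino acid synthesis, amino acid transport and tRNA charging. Unfolded protein in the endoplasmic reticulum reaches the same factor through the kinase PERK. ATF4 is controlled largely at translation, so its transcript on an array does not measure its protein.

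The core of the C/EBP-ATF element was searched as TGATGNAA and its reverse complement TTNCATCA, on both strands, in the window from 250 bases before to 50 bases after each start site in RefSeq's promoter table (GRCm38.p6). No other motif was searched. Of the 46 measured genes, 36 had a window. A match lay in 5 of 11 cytosolic synthetases, in 0 of 12 mitochondrial synthetases and in 2 of 13 other ATF4 targets, while 3.97% of all 32851 windows, or 4.51% of the 27025 genes with a window, held one. The Yars and Iars matches and the Aars match shown begin just after the start site. The matches are shown because, among the synthetase windows searched, they lay in cytosolic genes alone, and the transcripts of both classes are compared below. Each is given 5′ to 3′ on the gene's strand with 10 bases on either side, the match in capitals.
Aars, chr8:111033841-111033868, plus strand: gcgggtcactTTTCATCAgagcgctctg
Asns, chr6:7693215-7693242, minus strand: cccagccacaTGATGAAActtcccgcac
Chac1, chr2:119351039-119351066, plus strand: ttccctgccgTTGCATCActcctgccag
Gars, chr6:55037961-55037988, plus strand: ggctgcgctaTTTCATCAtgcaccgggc
Iars, chr13:49682127-49682154, plus strand: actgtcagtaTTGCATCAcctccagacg
Tars, chr15:11399656-11399683, minus strand: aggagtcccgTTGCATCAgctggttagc
Yars, chr4:129189896-129189923, plus strand: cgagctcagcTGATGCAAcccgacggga
A match is a description of letters and not a shown binding site. Among the genes that passed the test below, a match lay in 3 of the 5 lower ones with a window (Asns, Chac1 and Tars). The windows of Psat1 and Mthfd2, also lower, held none. A match lay in 0 of the 5 higher ones, of which Iars2, Lars2 and Fars2 are mitochondrial synthetases. Among genes that did not pass, a match lay in 4 of 26 (15.4%), including Gars, which read above WT. A link between match and direction was not tested. The full windows of the called genes with the largest differences are shown next, 2 outside and 2 inside the synthetase family, with the match in capitals. Cth and Wars had no entry.
Asns, chr6:7693160-7693459, minus strand: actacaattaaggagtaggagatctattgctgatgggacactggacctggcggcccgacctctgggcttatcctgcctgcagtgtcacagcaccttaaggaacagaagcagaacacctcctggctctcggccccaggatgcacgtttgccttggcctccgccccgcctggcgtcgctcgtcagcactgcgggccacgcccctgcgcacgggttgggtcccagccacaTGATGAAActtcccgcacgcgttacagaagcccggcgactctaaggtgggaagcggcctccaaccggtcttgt
Chac1, chr2:119350992-119351291, plus strand: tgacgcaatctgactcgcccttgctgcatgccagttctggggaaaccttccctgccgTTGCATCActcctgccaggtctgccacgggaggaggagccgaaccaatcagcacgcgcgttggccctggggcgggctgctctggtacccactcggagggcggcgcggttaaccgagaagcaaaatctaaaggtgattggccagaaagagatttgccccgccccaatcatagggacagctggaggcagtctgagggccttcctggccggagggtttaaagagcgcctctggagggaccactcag
Tars, chr15:11399609-11399908, minus strand: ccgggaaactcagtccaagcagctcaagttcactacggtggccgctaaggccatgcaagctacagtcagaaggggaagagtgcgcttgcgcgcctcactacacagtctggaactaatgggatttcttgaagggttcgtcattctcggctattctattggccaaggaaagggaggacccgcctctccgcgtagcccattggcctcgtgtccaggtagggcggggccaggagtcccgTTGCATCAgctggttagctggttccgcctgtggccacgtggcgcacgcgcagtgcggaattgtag
Fars2, chr13:36117393-36117692, plus strand: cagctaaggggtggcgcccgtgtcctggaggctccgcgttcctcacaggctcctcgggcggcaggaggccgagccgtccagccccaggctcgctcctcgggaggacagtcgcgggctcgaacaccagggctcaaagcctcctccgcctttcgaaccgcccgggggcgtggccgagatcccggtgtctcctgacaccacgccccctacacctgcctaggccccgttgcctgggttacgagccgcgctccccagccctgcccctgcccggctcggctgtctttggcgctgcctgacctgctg
The window of Fars2 has no capitals because these letters do not occur in it.

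In the arrays labelled STAT5b-/-, Asns, Chac1, Psat1 and Mthfd2 were lower and Cth, Sesn2 and Cbs were higher than in WT arrays. Among all 46 genes, 6 passed as lower and 6 as higher by limma (adjusted p under 0.05 over all 14351 genes). That is 13.0% in each direction, against 8.42% of all genes lower and 13.3% higher (21.7% in either direction). Of the 14 other ATF4 targets, 4 (28.6%) were lower and 3 (21.4%) higher, and of the 32 synthetases 2 (6.25%) were lower and 3 (9.38%) higher. The median log2 difference, STAT5b-/- minus WT, was -0.07 for the other ATF4 targets and 0.00 for the synthetases, against 0.01 for all genes. Beside these results, markers of other cells moved in the same arrays. The 8 measured goblet cell markers, cells that secrete mucus, had 6 lower and 0 higher. Their summed ratio was 2.92 to 3.33 in arrays labelled STAT5b-/-, against 7.52 to 8.27 in WT arrays. The 7 B and plasma cell markers had 4 lower, with sums of 1.24 to 2.43 in arrays labelled STAT5b-/-, against 5.04 to 9.19 in WT arrays. Of the 7 absorptive colonocyte markers 6 were higher, with sums of 16.6 to 18.5 in arrays labelled STAT5b-/-, against 6.72 to 7.30 in WT arrays. Tmigd1 alone gave 7.41, 6.84 and 5.77 of the sums in arrays labelled STAT5b-/-. The other marker, Car4, read 0.658, 0.617 and 0.588 in those arrays, below the 0.956, 1.37 and 0.679 of WT arrays. It did not pass (limma adjusted p = 0.123). Without WT replicate 3, 1 of the 7 passed as lower and 6 as higher. Of 8 fibroblast markers 7 were lower, with sums of 4.01 to 4.89 in arrays labelled STAT5b-/-, against 7.08 to 8.47 in WT arrays. Of 7 macrophage markers 6 were lower (3 without STAT5b-/- replicate 1, and 3 without replicate 2), with sums of 3.36 to 4.62 in arrays labelled STAT5b-/-, against 6.33 to 8.14 in WT arrays. Of the 6 smooth muscle and 6 pancreatic acinar markers 0 passed by limma, and of the 8 proliferating cell markers 1 was higher. After quantile normalization 6 goblet, 3 B and plasma cell, 3 fibroblast and 1 macrophage marker were lower and 0 absorptive markers higher. No marker of these lists was at the lowest deposited ratio of 0.01, and the part of these cells in the results was not tested. In bulk RNA, fewer cells of a type and less RNA per cell cannot be told apart.

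**Figure D1:**
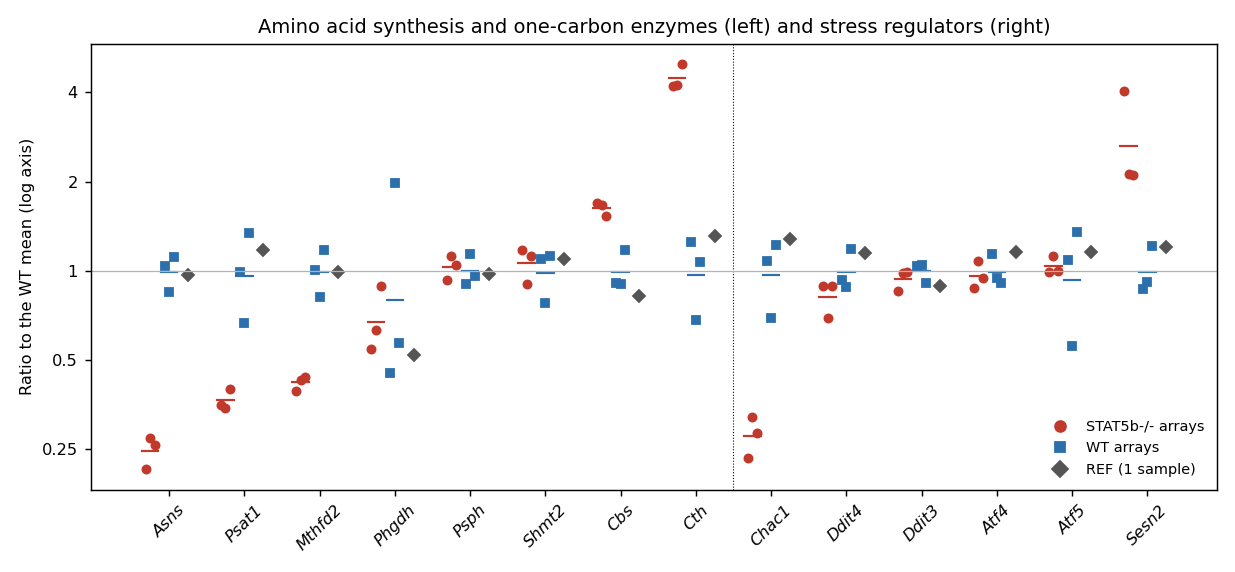
Ratio to the WT mean (log axis) of the 14 ATF4-related genes outside the synthetase family, in each STAT5b-/- array (circles), WT array (squares) and REF (diamond); bars are means of log2 ratios. Asns, Psat1, Mthfd2 and Chac1 lie below and Cbs, Cth and Sesn2 above every WT array, while Atf4 and Ddit3 overlap.

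Asns, which makes asparagine from aspartate and glutamine, had the largest fall of the set. Its ratios were 0.214, 0.274 and 0.259 in the arrays labelled STAT5b-/-, against 1.04, 0.846 and 1.11 in WT arrays, and 0.972 in REF. The groups did not overlap, as in 41.5% of all genes. The fall was 4.01-fold (log2 difference -2.00 ± 0.16, SE; limma adjusted p = 0.0006), and 0.996% of all genes had a more negative difference. Mthfd2, a mitochondrial enzyme that oxidises methylene-tetrahydrofolate, read 0.393, 0.430 and 0.440 in arrays labelled STAT5b-/-, against 1.01, 0.814 and 1.18 in WT arrays. It was 2.35-fold lower (log2 difference -1.23 ± 0.16; adjusted p = 0.00328). Psat1, the middle step of serine synthesis, read 0.354, 0.344 and 0.401 in arrays labelled STAT5b-/-, against 0.994, 0.667 and 1.34 in WT arrays. It was 2.63-fold lower (log2 difference -1.40 ± 0.25; adjusted p = 0.00984) and had the largest WT SD of the 12 called genes, 0.336. The steps on either side of Psat1 did not pass. Phgdh, which opens the serine pathway, averaged 0.689 ± 0.179 (SD, n = 3) in arrays labelled STAT5b-/-, against WT ratios of 0.451, 1.98 and 0.570 (adjusted p = 0.794). Its WT replicate 2 stood far above the other WT arrays. In that array the summed ratio of 6 pancreatic acinar markers was 8.67, against 4.44 and 4.90 in the other WT arrays. A link between Phgdh and these markers was not tested. Psph, which closes the pathway, had a log2 difference of 0.05 ± 0.14 (adjusted p = 0.846), and Shmt2, which splits serine into glycine and a one-carbon unit in mitochondria, 0.11 ± 0.19 (adjusted p = 0.748).

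The enzymes of transsulfuration, which turn homocysteine into cysteine, were higher. Cth, which releases cysteine from cystathionine, read 4.19, 4.25 and 4.98 in arrays labelled STAT5b-/-, against 1.25, 0.683 and 1.07 in WT arrays, and 1.31 in REF. All arrays labelled STAT5b-/- stood clear of the WT arrays. The rise was 4.60-fold (log2 difference 2.20 ± 0.23; adjusted p = 0.00144), larger than in 99.3% of genes. Cbs, which makes cystathionine, read 1.70, 1.67 and 1.53 in arrays labelled STAT5b-/-, against 0.913, 0.906 and 1.18 in WT arrays, and 0.822 in REF. It rose 1.64-fold (log2 difference 0.72 ± 0.15; adjusted p = 0.0158). Its 2 probe sets differed by at most 0.0106 on the log2 scale in any array and were averaged, not counted as separate measurements. The call for Cbs ended without STAT5b-/- replicate 1 (adjusted p = 0.0618), STAT5b-/- replicate 2 (0.0672) or WT replicate 1 (0.0503).

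Of the 6 stress response regulators, 1 (16.7%) was lower and 1 (16.7%) higher, against 8.42% and 13.3% of all genes. Chac1, an enzyme that degrades glutathione, read 0.233, 0.322 and 0.284 in arrays labelled STAT5b-/-, against 1.08, 0.696 and 1.22 in WT arrays, and 1.28 in REF. It was 3.51-fold lower (log2 difference -1.81 ± 0.24; adjusted p = 0.00325). Sesn2, a leucine sensor that restrains the growth kinase complex mTORC1, read 4.06, 2.13 and 2.11 in arrays labelled STAT5b-/-, against 0.870, 0.916 and 1.21 in WT arrays. The male array, replicate 1, was the highest, and the other 2 arrays labelled STAT5b-/- still lay above all WT arrays. Sesn2 rose 2.66-fold (log2 difference 1.41 ± 0.29; adjusted p = 0.0146). Ddit4, another inhibitor of mTORC1, had a log2 difference of -0.28 ± 0.17 (adjusted p = 0.316).

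The transcription factors themselves did not pass. Atf4 read 0.875, 1.08 and 0.943 in arrays labelled STAT5b-/-, against 1.14, 0.946 and 0.911 in WT arrays, and 1.16 in REF. The groups overlapped, with a log2 difference of -0.05 ± 0.15 (adjusted p = 0.851). Ddit3, which encodes the stress factor CHOP, read 0.853, 0.982 and 0.992 in arrays labelled STAT5b-/-, against 1.04, 1.05 and 0.911 in WT arrays (log2 difference -0.09 ± 0.13; adjusted p = 0.696). Atf5, a relative of Atf4, averaged 1.04 ± 0.0711 in arrays labelled STAT5b-/- and 1 ± 0.406 in WT arrays (SD, n = 3 each; adjusted p = 0.786). Among the called genes, WT replicate 2 was the lowest WT array in Asns, Mthfd2, Psat1, Chac1, Wars, Cth, Cbs, Fars2 and Iars2. It was also the lowest in Atf5. The arrays labelled STAT5b-/- lay below it in Asns, Mthfd2, Psat1, Chac1 and Wars, and above it in Cth, Cbs, Fars2 and Iars2. When all arrays were brought to one distribution by quantile normalization, Asns kept its call (log2 difference -1.49; adjusted p = 0.0333). The others of the 12 called genes did not, among them Chac1 (adjusted p = 0.144), Mthfd2 (0.133), Psat1 (0.32), Cth (0.203), Sesn2 (0.247) and Cbs (0.491), with every sign kept. The deposited values are ratios to the WT mean, and what quantile normalization itself does to differences between such ratios was not tested. A lost call does not by itself show that a difference is absent, and a kept sign does not show that it is present.

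Most cytosolic synthetases read below WT and most mitochondrial synthetases above it. Of the 17 cytosolic genes, 14 had a negative log2 difference, 2 (11.8%) passed as lower and 0 as higher, with a median of -0.13. Of the 15 mitochondrial genes, 13 had a positive difference, 3 (20%) passed as higher and 0 as lower, with a median of 0.31. Over all 14351 genes, 7083 differences were negative and 7268 positive, and 8.42% passed as lower and 13.3% as higher. The shares that passed thus lay not far from those of all genes, on few calls. The groups did not overlap downward in 9 of the 17 cytosolic genes (16.5% of all genes) and upward in 8 of the 15 mitochondrial genes (25.0% of all genes). Within arrays, the median log2 ratio of the mitochondrial genes was 0.36, 0.28 and 0.25 in arrays labelled STAT5b-/-, against -0.06, -0.02 and 0.02 in WT arrays, and 0.05 in REF. That of the cytosolic genes was -0.15, -0.10 and -0.16 in arrays labelled STAT5b-/-, against -0.01, -0.04 and 0.03 in WT arrays, and 0.02 in REF.

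**Figure D2:**
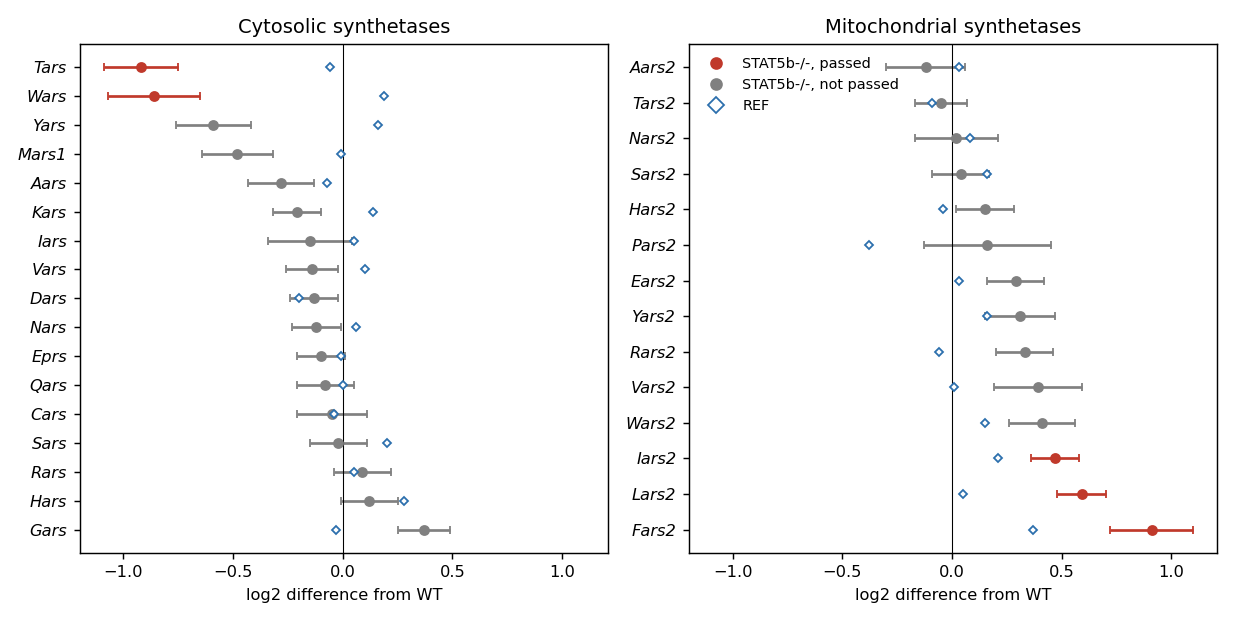
The log2 difference from WT of 17 cytosolic (left) and 14 of the 15 mitochondrial synthetases (right) for STAT5b-/- (circles with SE; red where adjusted p is under 0.05) and REF (open diamonds). Tars and Wars were lower, and Iars2, Lars2 and Fars2 higher.

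Tars, the cytosolic threonyl-tRNA synthetase, read 0.425, 0.601 and 0.576 in arrays labelled STAT5b-/-, against 0.990, 1.07 and 0.944 in WT arrays, and 0.960 in REF. Every array labelled STAT5b-/- lay well below the WT arrays. The fall was 1.89-fold (log2 difference -0.92 ± 0.17; adjusted p = 0.00968). Wars, for tryptophan, which interferon also induces, read 0.497, 0.535 and 0.583 in arrays labelled STAT5b-/-, against 0.855, 0.817 and 1.33 in WT arrays. It fell 1.82-fold (log2 difference -0.86 ± 0.21; adjusted p = 0.0277), with the larger spread among the WT arrays. The call for Wars ended without STAT5b-/- replicate 1 (adjusted p = 0.0997), replicate 2 (0.0924) or replicate 3 (0.0703). Yars, for tyrosine, and Mars1, for methionine, came next and did not pass, with log2 differences of -0.59 ± 0.17 (adjusted p = 0.0525) and -0.48 ± 0.16 (adjusted p = 0.0802). Aars, Kars, Iars, Vars, Dars, Nars, Eprs, Qars, Cars and Sars had differences from -0.28 for Aars to -0.02 for Sars, and Rars and Hars 0.09 and 0.12. Eprs, which joins glutamate and proline to their tRNAs in a single protein, averaged 0.931 ± 0.0446 in arrays labelled STAT5b-/- and 1 ± 0.00975 in WT arrays (SD, n = 3 each; adjusted p = 0.565). Gars, for glycine, stood at the other end, with ratios of 1.32, 1.33 and 1.23 in arrays labelled STAT5b-/-, against 0.923, 1.05 and 1.03 in WT arrays. Its groups did not overlap, but it did not pass (log2 difference 0.37 ± 0.12; adjusted p = 0.0702). Of the other gene that serves both compartments, Kars for lysine, the log2 difference was -0.21 ± 0.11 (adjusted p = 0.241), so these 2 genes lay on opposite sides of 0.

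Fars2, the mitochondrial phenylalanyl-tRNA synthetase, read 1.85, 1.77 and 1.89 in arrays labelled STAT5b-/-, against 1.31, 0.832 and 0.863 in WT arrays, and 1.27 in REF. The groups were apart, with REF near the highest WT array. The rise was 1.87-fold (log2 difference 0.91 ± 0.19; adjusted p = 0.0177). Lars2, for leucine, read 1.56, 1.42 and 1.53 in arrays labelled STAT5b-/-, against 0.956, 1.02 and 1.02 in WT arrays (log2 difference 0.59 ± 0.11; adjusted p = 0.0125). Iars2, for isoleucine, read 1.45, 1.39 and 1.32 in arrays labelled STAT5b-/-, against 1.02, 0.984 and 0.995 in WT arrays, and 1.16 in REF (log2 difference 0.47 ± 0.11; adjusted p = 0.0264). In both, the WT arrays lay close together and the arrays labelled STAT5b-/- above them. Wars2, Vars2, Rars2, Yars2 and Ears2 had differences from 0.29 for Ears2 to 0.41 for Wars2 and did not pass, and Pars2, Hars2, Sars2, Nars2, Tars2 and Aars2 lay between 0.16 and -0.12. Each of the 3 calls ended when certain arrays were left out. That of Fars2 ended without STAT5b-/- replicate 1 (adjusted p = 0.0659), 2 (0.0622) or 3 (0.0683), or WT replicate 3 (0.0606). That of Iars2 ended without STAT5b-/- replicate 1 (0.0833), 2 (0.0945) or 3 (0.0751), or WT replicate 1 (0.0624) or 3 (0.0778), and that of Lars2 without STAT5b-/- replicate 3 (0.0589). After quantile normalization 0 of the 32 synthetases passed by limma, with unadjusted p of 0.00247 for Tars, 0.0224 for Lars2, 0.0617 for Iars2, 0.0822 for Wars and 0.235 for Fars2, and the medians were -0.11 for cytosolic and 0.21 for mitochondrial genes.

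Synthetases were paired by symbol, a cytosolic gene with the mitochondrial gene of the same name and a final 2, which gave 11 pairs measured in full. Glutamate, proline and phenylalanine stayed outside these pairs because their cytosolic enzymes have other names. For glutamate and proline, Ears2 and Pars2 had log2 differences of 0.29 and 0.16, beside -0.10 for the shared cytosolic Eprs. In the 11 pairs the log2 difference of the mitochondrial gene lay above that of the cytosolic gene, by a median of 0.52. The widest gap was for tryptophan, where Wars and Wars2 had differences of -0.86 and 0.41. Within single arrays, the log2 ratio of Wars minus that of Wars2 was -1.48, -1.24 and -1.16 in arrays labelled STAT5b-/-, against -0.15, -0.08 and 0.16 in WT arrays, and 0.02 in REF. The threonine pair gave -1.11, -0.71 and -0.80 in arrays labelled STAT5b-/-, against 0.06, 0.05 and -0.11 in WT arrays. The tyrosine pair gave -0.85, -0.62 and -1.22 in arrays labelled STAT5b-/-, against -0.14, 0.15 and 0.02 in WT arrays. The groups did not overlap in 6 of the 11 pairs, among them these and the isoleucine and valine pairs. For single genes, the groups did not overlap in 41.5% of all genes. No share was taken over other pairs of genes, so the count of 6 has no background of its own kind. The smallest gap was for histidine, at 0.02. These gaps are a description and were not tested over the pairs, whose genes were measured on the same arrays.

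**Figure D3:**
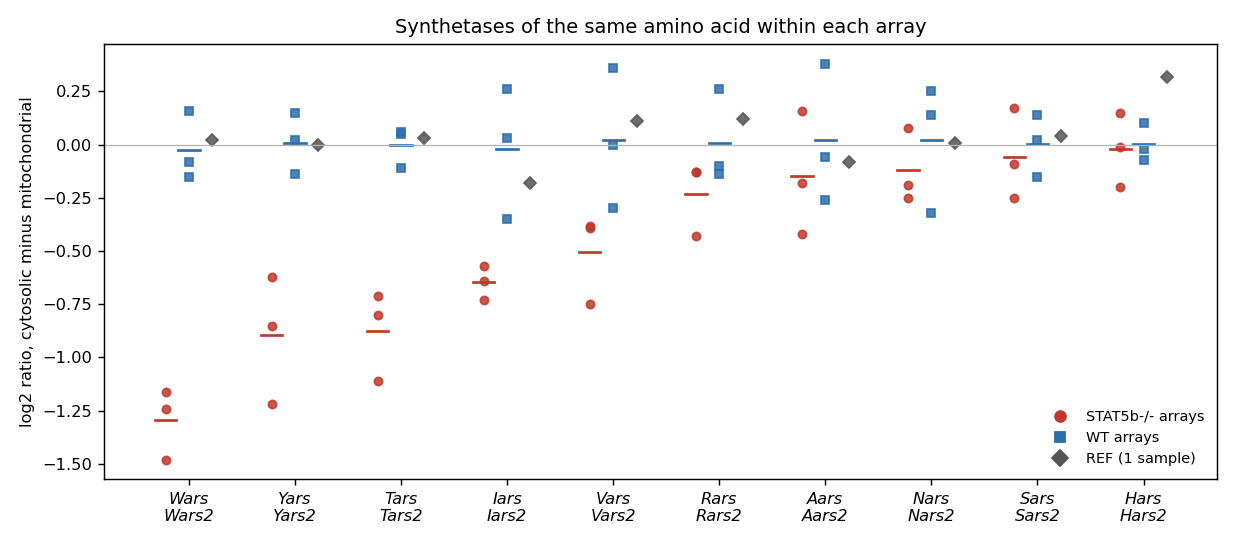
The log2 ratio of the cytosolic synthetase minus that of the mitochondrial synthetase of the same amino acid, for 10 of the 11 pairs, in each STAT5b-/- array (circles), WT array (squares) and REF (diamond); bars are means. From the tryptophan to the valine pair, all STAT5b-/- arrays lie below all WT arrays.

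Other genes of the pathway were read from lists of known members, which were chosen with earlier results of these data known. The counts therefore describe the lists and are no separate test. Of 24 further ATF4 targets, 11 (45.8%) were lower and 2 (8.33%) higher, against 8.42% and 13.3% of all genes. Their median log2 difference was -0.34. Nupr1, a stress-induced nuclear protein, read 0.124, 0.124 and 0.121 in arrays labelled STAT5b-/-, against 1.08, 1.03 and 0.888 in WT arrays, and 1.03 in REF. It was 8.12-fold lower (log2 difference -3.02 ± 0.13; adjusted p = 7.12e-05) with little spread in either group. Aldh1l2, a mitochondrial folate enzyme, had a log2 difference of -2.93 ± 0.29, Slc7a11, which imports cystine, of -1.79 ± 0.21, and Stc2, a secreted glycoprotein, of -1.47 ± 0.23, all lower by limma. The 2 that rose, named after their values were seen, were Atf3 (2.11 ± 0.38) and Ndrg1 (0.83 ± 0.22). The count of 11 lower genes was 6 without STAT5b-/- replicate 2 and 6 without replicate 3, and 2 after quantile normalization. That of 2 higher genes was 1 without any single STAT5b-/- array or without WT replicate 1.

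Upstream, a list held eIF2alpha kinases, their opposing phosphatase subunits and subunits of eIF2 and its exchange factor eIF2B. Of its 11 measured genes, 3 (27.3%) were higher and 1 (9.09%) lower, against 13.3% and 8.42% of all genes. These 4 are kinases or phosphatase subunits; the kinases Eif2ak3 (adjusted p = 0.0561) and Eif2ak2 (0.694) and every measured eIF2 or eIF2B subunit did not pass. Eif2ak4, which encodes GCN2, read 0.519, 0.545 and 0.636 in arrays labelled STAT5b-/-, against 1.11, 0.856 and 1.04 in WT arrays. It fell by 0.82 ± 0.15 on the log2 scale (adjusted p = 0.0110). Eif2ak1, the haem-regulated kinase, rose by 0.81 ± 0.11, and the phosphatase subunits Ppp1r15b and Ppp1r15a rose by 1.17 ± 0.16 and 0.91 ± 0.26. Ppp1r15a passed narrowly by limma (adjusted p = 0.0486). These directions are of transcripts, and after quantile normalization 0 of the 11 genes passed by limma. Without STAT5b-/- replicate 2, 0 of the 11 were lower. The count of 3 higher genes was 2 without any single STAT5b-/- array or without WT replicate 1. Of the 6 genes for synthetase complex proteins, phenylalanyl-tRNA synthetase subunits and the threonyl relative Tarsl2, 1 was lower. Tarsl2 fell by 1.24 ± 0.25 (adjusted p = 0.0135), in the same direction as its relative Tars, and 0 of the 6 passed as lower without STAT5b-/- replicate 2 or without replicate 3. Farsa and Farsb, the subunits of the cytosolic phenylalanyl enzyme, had log2 differences of -0.63 ± 0.19 and 0.31 ± 0.12 and did not pass (adjusted p = 0.0537 and 0.129). Of 13 genes of the endoplasmic reticulum unfolded protein response, 10 (76.9%) were lower and 0 higher, with a median of -0.96 (3 lower after quantile normalization). Among them Hspa5, the main chaperone of that compartment, read 0.454, 0.470 and 0.476 in arrays labelled STAT5b-/-, against 0.882, 1.14 and 0.974 in WT arrays, and 0.699 in REF. The REF median of this list was also below WT, at -0.26.

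**Figure D4:**
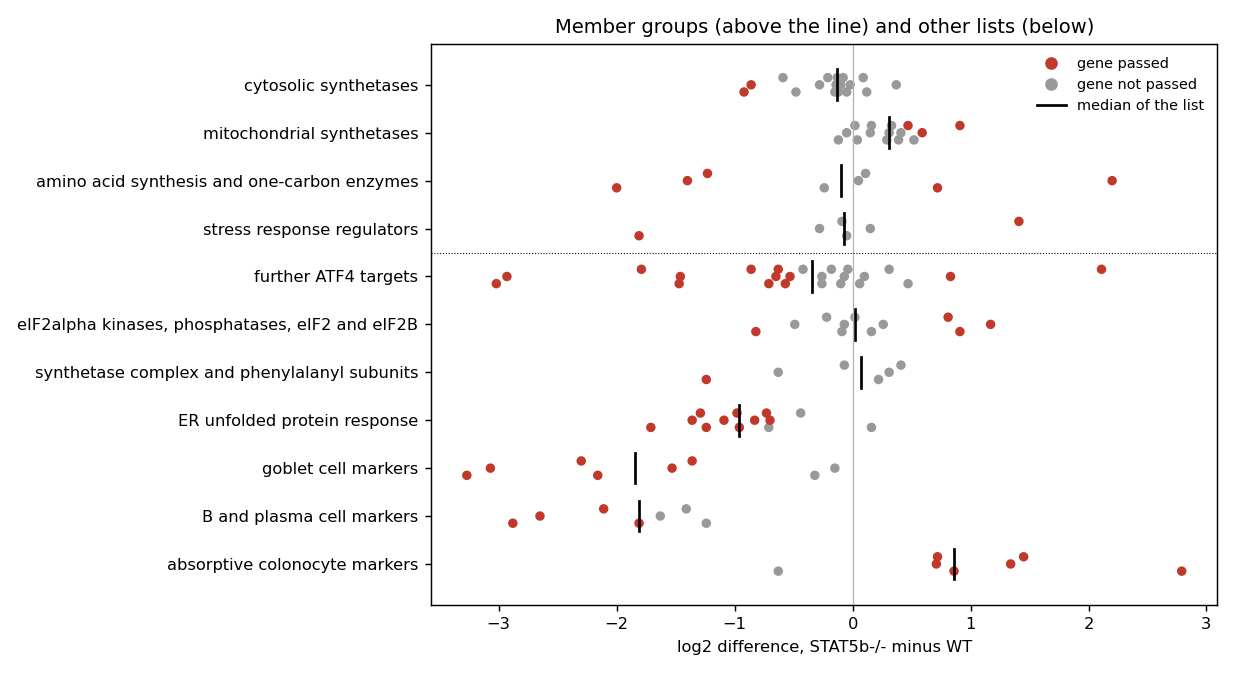
The log2 difference, STAT5b-/- minus WT, of each gene (points; red where adjusted p is under 0.05) in the 4 member groups, above the dotted line, and in pathway and cell type lists below it; black bars are medians. Medians were -0.34 for the further ATF4 targets, -0.96 for the unfolded protein response and 0.31 for the mitochondrial synthetases.

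REF, compared with the 3 WT arrays as 1 sample, gave 0 calls by limma over all genes (0% of 14351, with 208 genes at an unadjusted p under 0.05). Among the 46 genes 0 had an unadjusted p under 0.05, and REF lay inside the WT range in 28. Its log2 differences from WT ranged from -0.61 for Phgdh to 0.44 for Cth. In 0 of the 12 called genes did REF lie within the range of the arrays labelled STAT5b-/-. With 1 sample against 3, 0 calls do not show that REF and WT are alike. Both comparisons share the WT arrays.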

How the data were processed

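Total RNA from colon was amplified, labelled with biotin and hybridised to Affymetrix arrays, per the labels' protocols. RMA is named in the submitters' processing notes; its version and the array type are not given in the sources used here. The authors' deposited values are a linear ratio of each of 26180 probe sets to the mean of the 3 WT arrays, which is 1 to within 1.87e-07. The lowest value, 0.01, was reached by 19 probe sets and by 0 of the 49 analysed in depth.

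Probe sets carry RefSeq accessions, which were looked up, ignoring versions, in RefSeq's gene list for GRCm38.p6: 15228 matched 1 symbol, 10952 none. Probe sets of a gene were averaged as log2 ratios, with no pseudocount. The 3 genes with several probe sets had near-identical ones. Groups follow the labels. STAT5b-/- and WT were compared with limma 3.58.1 in R 4.3.3 (lmFit, eBayes), two-sided, with p-values adjusted by Benjamini-Hochberg over 14351 genes and called under 0.05; REF was compared with WT as 1 against 3. Each ± on a log2 difference is its SE from limma, and folds were taken from mean log2 ratios. Lists are described by counts and medians. In a check on simulated data, the STAT5b-/- fit found large changes more often than small ones, and the REF fit found none of them. The genes and lists were chosen with earlier results of these data known. All 46 genes could be named. Of other lists, the 4 with the smallest p could be, with exceptions chosen after their values were seen (Atf3, Ndrg1, Car4, Eif2ak2 and Eif2ak3). Promoter windows were printed for the called genes with the largest differences. Alternatives covered normalization, probe set choice, a pseudocount of 0.1, the floor, REF as a WT sample, sex, variance model, replicate block and each array left out. Values of 1 gene and 1 sequence are not reported here.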

Additional observations from a re-analysis of the deposited data

How the results depend on the processing

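Over 15 alternatives, the 12 called genes kept their sign in each. Asns kept its call in all, and Chac1, Cth, Mthfd2, Psat1, Sesn2 and Tars in all but quantile normalization. That setting left 320 calls of 3119 over all genes, with 37.8% higher against 61.2%, and 1 lower and 0 higher gene of the set (0 lower and 0 higher synthetases, 1 lower ATF4 target). With the replicate number as a block there were 2039 calls over all genes, 3 higher genes of the set and 1 higher synthetase. The deviations of same-numbered arrays from their group means had correlations of 0.036, -0.098 and -0.186. Each value comes from 1 pair of arrays, and whether the numbers pair the samples was not tested. With sex as a covariate, which here removes the only male, calls numbered 1914, with 3 higher genes, 1 lower and 1 higher synthetase. With REF added to WT, calls over all genes numbered 3535, with 4 lower and 4 higher synthetases. Leaving out single arrays gave 1716 to 3551 calls over all genes, 5 to 7 lower and 3 to 7 higher genes of the set, 1 to 3 lower and 0 to 4 higher synthetases, 4 lower other ATF4 targets, and medians of -0.05 to 0.04 for synthetases and -0.13 to 0.00 for other ATF4 targets. Atf4 changed sign at 0.02 with the sex covariate and without STAT5b-/- replicate 1, and at 0.05 without WT replicate 1, far from the threshold in each. Without scanner intensities, signal over background could not be judged.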
